A study of Mus musculus with 2 samples.

Results

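Parvalbumin-type Sox6 interneurons are nuclei of mouse forebrain that carried transcripts for GABA synthesis, the transcription factor Sox6 and the fast-spiking interneuron genes Eya4, Mybpc1 or Pvalb. They were selected on measured values, by limits on raw counts of unique molecular identifiers (UMIs, each standing for 1 captured RNA molecule). A nucleus had to hold 300 to 7000 genes and at least 2000 UMIs, with at least 3 UMIs of Gad1 and Gad2 together, 3 of Sox6, 5 of Erbb4, and 4 of Eya4, Mybpc1 and Pvalb together. It could hold at most 3 UMIs of Sst, 5 of Adarb2, 2 of Slc17a7 and Slc17a6 together and 5 of Mobp and St18 together. These limits took in 286 of 30413 nuclei, of which 120 were among the 12204 nuclei of the Normal library and 166 among the 18209 nuclei of the SAH library.

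The data are single-nucleus RNA sequencing of C57BL/6J male mice 6 to 8 weeks old, from a study of subarachnoid haemorrhage (SAH), bleeding into the space around the brain. SAH was made by perforating a vessel with an endovascular filament, and tissue of the haemorrhagic hemisphere between bregma 2.34 and -2.18 mm was taken 12 h later. Normal is the control as its labels name it, whereas the study's text calls its control sham-operated and gives the mice an older age range. The study also states more nuclei for its control than for SAH after filtering, while the Normal file holds fewer barcodes than the SAH file. Groups follow the labels, and if the files were exchanged the sign of every ratio below would turn. Each group was 1 library of nuclei from the pooled tissue of 3 mice, so no value below has a replicate check, nor can the library and the condition be told apart.

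Parvalbumin interneurons are inhibitory neurons born in the medial ganglionic eminence of the embryo. They fire long, fast trains of action potentials, for which Kv3 potassium channels repolarize the membrane quickly, and they release GABA onto the cell bodies and initial axon segments of excitatory neurons. Their metabolic demand is high, many are wrapped in a perineuronal net of extracellular matrix, and in cortex they are known for setting the timing of excitatory cells.

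The nuclei held 1766511 UMIs in Normal, with a median of 12684 per nucleus (4752 to 38277), and 2605579 in SAH, with a median of 14219 (6464 to 44031). A median of 4054 genes per nucleus was detected in Normal and of 3940 in SAH. Levels are given below as CPM, the UMIs of a gene per 1000000 UMIs of the same nuclei. Intervals in brackets are exact 95% intervals for counting error only, Poisson for a level, binomial for a share and conditional binomial for a ratio. They hold nothing of the variation between mice or libraries. Those of levels and ratios, made on summed UMIs, also hold nothing of the variation between nuclei.

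The label was checked against the 6 marker genes that go with it. All of Pvalb, Eya4, Sox6, Erbb4, Mybpc1 and Kcnmb2 were detected in both libraries, but the limits used the first 5 of them, which leaves Kcnmb2 as the marker not used. Kcnmb2, a regulatory subunit of calcium-activated potassium channels, stood at 951 CPM in Normal and 1085 CPM in SAH, against 593 and 624 CPM in Sst interneurons of the same libraries. Of the genes for origin in the medial ganglionic eminence, Lhx6 had a UMI in 52.5% of Normal and 48.2% of SAH nuclei, and Satb1 in 89.2% and 83.1%. Nxph1 was detected in all 120 and all 166 nuclei, while Nkx2-1, which cortical interneurons switch off, had 0 UMIs in Normal and 1 in SAH. Of the chandelier cell list, Vipr2 had 0 and 1 UMIs and Unc5b 4 and 4, but the list as a whole stood at 683 CPM in Normal and 690 CPM in SAH, against 144 and 141 CPM in the Sst class. Nearly all of it was Trps1, at 670 and 678 CPM. The reticular thalamic list held 35 and 69 UMIs, with Six3 and Isl1 at 0 and most of the SAH count from Meis2 (9 and 49 UMIs), and the pallidal list 79 and 82 UMIs, led by Etv1 (60 and 64).

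Sst interneurons, the other large Sox6 class, were taken as inhibitory nuclei with at least 3 UMIs of Sox6 and at least 4 of Sst, which gave 180 nuclei in Normal and 163 in SAH. Interneurons with at least 10 UMIs of Adarb2 and at most 2 of Sox6, of caudal ganglionic origin in cortex, gave 318 and 505. Among 26 parvalbumin-type markers that the limits did not use, 19 had the 200 UMIs over both libraries set for a comparison, and 16 of these were at least 1.5-fold above the Sst class in both libraries, against 11.4% of all 3415 genes with that many UMIs. The share of these genes at least 1.5-fold below the Sst class in both libraries was 5.83%, and 1 of the 19 markers was among them. The marker list was written with earlier results of these data known. The limits on Sst and on Eya4, Mybpc1 and Pvalb also set these nuclei apart from the Sst class beforehand. The count therefore describes the classes and is no independent check of the label.

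**Figure D1:**
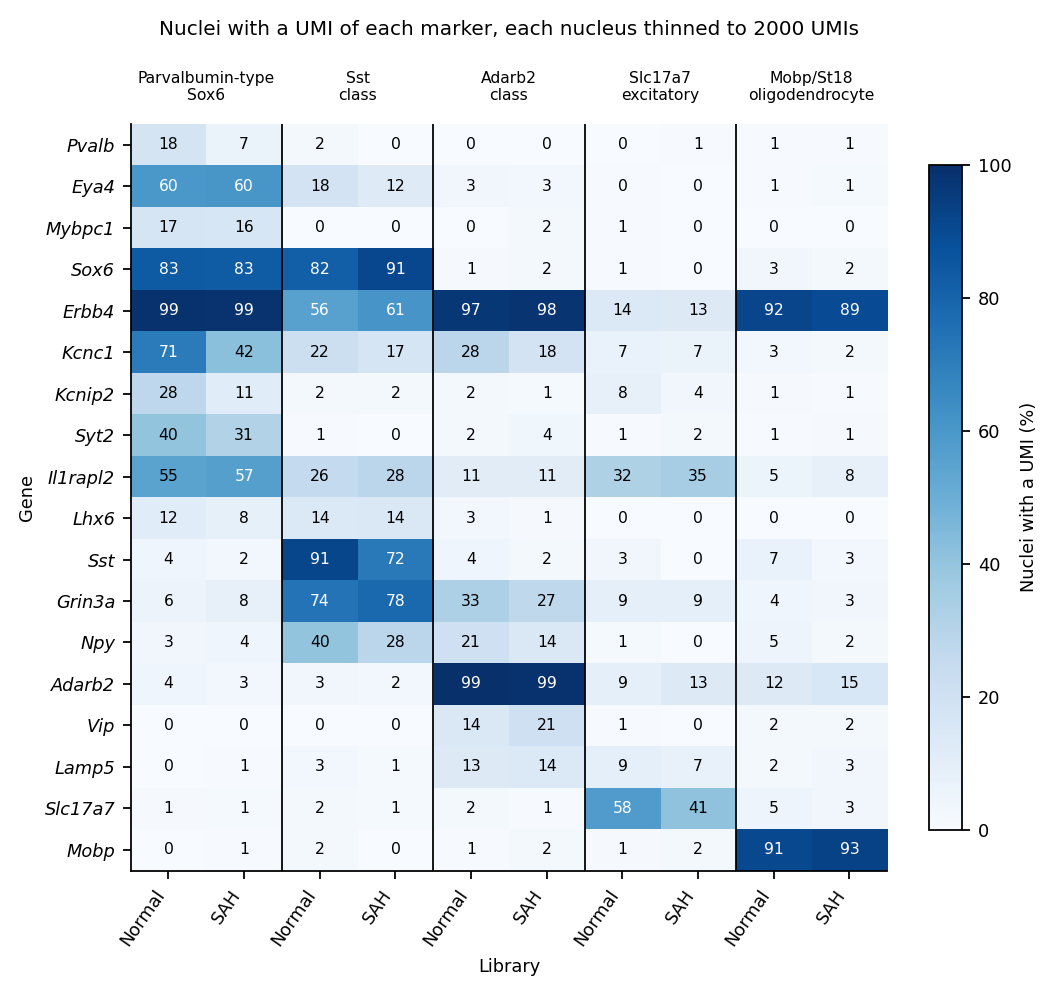
Share of nuclei (%) with at least 1 UMI of each marker gene (rows) in the Normal and the SAH library of 5 classes of nuclei (columns), after each nucleus was thinned to 2000 UMIs so that depth is equal. Too shallow for this, 107 Normal and 267 SAH oligodendrocyte nuclei were left out. Pvalb, Eya4, Mybpc1, Kcnip2 and Syt2 are highest in the parvalbumin-type columns, Sox6 is shared with the Sst class and Erbb4 with the Adarb2 class and oligodendrocytes, and Kcnc1 is found in 70.8% of Normal and 42.2% of SAH parvalbumin-type nuclei. Genes used by the limits are shown as a description.

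Markers of other cells were present to differing degrees. The 8 oligodendrocyte markers summed to 72.5 CPM in Normal and 64.5 CPM in SAH, against 23394 and 13139 CPM in oligodendrocyte nuclei. Of 7 vascular markers 5 were at 0 in each library, and the list held 3 UMIs in each. The 6 somatostatin markers held 130 UMIs in Normal and 343 in SAH, or 73.6 and 132 CPM, of which Grin3a gave 55 and 232 UMIs. Blood markers gave 7 and 4 UMIs, and Hbb-bt was at 0 in both libraries. The lists for astrocytes (458 and 391 CPM) and striatal spiny neurons (823 and 638 CPM) rested mostly on Slc4a4 and Pde10a, genes that many neurons also transcribe, and the dopamine receptor gene Drd2 and Ppp1r1b were at 0 in Normal and had 2 and 1 UMIs in SAH. The excitatory list stood at 340 and 295 CPM, led by Camk2a, against 1693 and 1429 CPM in excitatory nuclei, and the caudal-type interneuron list at 153 and 161 CPM, led by Reln. Microglial markers summed to 104 and 79.8 CPM. The precursor list was higher in SAH, at 104 and 185 CPM, with 181 and 441 UMIs of it from Lhfpl3, 2 and 40 from Vcan and none from Pdgfra or Cspg4. For none of these lists was its part in the ratios below tested.

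The limit on Eya4, Mybpc1 and Pvalb decided the most nuclei. At its minimum of 4 UMIs lay 16 nuclei in Normal and 13 in SAH, and 16 and 19 nuclei that met every other limit lay just outside it, at 3 UMIs. This limit alone removed 175 nuclei in Normal and 230 in SAH, and the median of the 3 genes together was 9 UMIs in both groups of members. No doublets were removed. The caller Scrublet marked 6 of the 120 and 8 of the 166 members, with median scores of 0.0149 and 0.0122 against 0.0285 over all nuclei of each library. Of 78 cell barcodes found in both libraries, 1 belonged to a Normal and 2 to a SAH member.

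Counted by the limits given, the share of parvalbumin-type interneurons was close in both libraries. They made up 0.983% [0.816, 1.18] of all nuclei in Normal and 0.912% [0.779, 1.06] in SAH. Among nuclei with at least 3 UMIs of Gad1 and Gad2 the shares were 6.21% [5.17, 7.37] of 1934 and 6.67% [5.72, 7.72] of 2490. Counted within the parvalbumin-type, Sst and Adarb2 classes together they were 19.4% in Normal and 19.9% in SAH. In each of these measures the interval of one library held the value of the other. That did not hold with the marker limits read per 10000 UMIs, which gave 0.811% [0.660, 0.987] and 0.648% [0.537, 0.776]. Nor did it hold with looser marker limits, which gave 1.37% [1.17, 1.59] in Normal and 1.16% [1.01, 1.33] in SAH. Counted only with a Pvalb UMI, whose level itself differed, they were 0.672% [0.535, 0.833] of nuclei in Normal and 0.368% [0.285, 0.467] in SAH. Other nuclei were taken up in different proportions, with 1264 Slc17a7 excitatory nuclei in Normal and 513 in SAH and 683 and 1850 oligodendrocyte nuclei, so a share of all nuclei also moves with the nuclei around it.

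Expression was then compared between SAH and Normal for the 3415 genes with at least 200 UMIs over both libraries. A ratio of 1.5-fold was taken as the limit of size, and at this limit 183 genes (5.36%) were higher and 280 (8.20%) lower in SAH. The median log2 ratio of SAH over Normal over all these genes was -0.08, and after each ratio was set relative to this median the split was 233 higher and 208 lower. Gene length moved with the ratio. The median was -0.26 for genes shorter than 57.4 kb, -0.09 for those between and 0.10 for genes longer than 129 kb, and with each gene set against the 500 genes nearest in length the split was 225 higher and 140 lower. Over the same genes the median log2 ratio was -0.08 in the Sst class and -0.07 in the Adarb2 class. The 3 classes share their libraries, so their ratios are given side by side below and not as separate evidence.

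Pvalb, the calcium-binding protein that gives these neurons their name, was lower in SAH. The gene (chr15:78191114-78206400, minus strand, GRCm38) held 144 UMIs in Normal and 96 in SAH, or 81.5 CPM [68.8, 96.0] and 36.8 CPM [29.8, 45.0] (log2 ratio -1.15 [-1.53, -0.76]). A Pvalb UMI was seen in 82 of 120 nuclei (68.3%) in Normal and in 67 of 166 (40.4%) in SAH, and at most 5 UMIs were in any 1 nucleus of either library. At an equal depth of 2000 UMIs the shares were 17.5% and 6.63%, against 1.67% and 0% in the Sst class and 0% and 0% in the Adarb2 class. Since Pvalb counted towards the limits, its level was read again where it did not. Among the 295 Normal and 396 SAH nuclei that met every limit but the one on Eya4, Mybpc1 and Pvalb, Pvalb stood at 48.1 and 22.8 CPM (log2 ratio -1.08 [-1.41, -0.74]). Among members with a Pvalb UMI, a choice made on Pvalb itself, its ratio was -0.47, inside 1.5-fold. Of the other genes of that limit, Eya4, a transcriptional co-activator, stood at 498 and 540 CPM and Mybpc1, a myosin-binding protein, at 97.4 and 115 CPM.

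Of 40 potassium channel genes 30 were compared. At least 1.5-fold higher was 1 of them and 5 were lower, beside 5.36% and 8.20% of all genes, and the median log2 ratio of the list was 0.13, above that of all genes. Kcnc1 (chr7:46396497-46438704, plus strand) encodes Kv3.1, the channel that lets these cells fire at high rates. It had 935 UMIs in Normal and 694 in SAH, or 529 CPM [496, 564] and 266 CPM [247, 287] (log2 ratio -0.99 [-1.13, -0.85]). The middle nucleus held 7 Kcnc1 UMIs in Normal and 4 in SAH, and Kcnc1 was seen in 99.2% and 90.4% of nuclei. Its log2 ratio was -0.49 [-0.75, -0.23] in the Sst class and -0.30 [-0.49, -0.12] in the Adarb2 class, and the difference between the classes was not tested.

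Kcnc2, which encodes Kv3.2, stood at 2909 CPM in Normal and 3732 CPM in SAH (log2 ratio 0.36 [0.31, 0.41]) below the limit of 1.5-fold, while the Sst and Adarb2 classes gave -0.07 and -0.17. Kcnip2, an auxiliary subunit of the A-type channel Kv4, was lower in SAH, at 120 CPM in Normal and 58.0 CPM in SAH (log2 ratio -1.05 [-1.36, -0.74]), with a UMI in 69.2% and 48.8% of nuclei. Kcnip4 of the same gene family was at 4811 and 4984 CPM, while its log2 ratio in the Sst class was 0.61. Kcnt1, a sodium-activated potassium channel, gave 109 and 60.3 CPM (log2 ratio -0.86 [-1.17, -0.55]), beside -0.74 and -0.69 in the Sst and Adarb2 classes. The gene above the limit was Kcnn2, a small-conductance calcium-activated channel named here after its value was seen, at 132 and 227 CPM (log2 ratio 0.78).

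**Figure D2:**
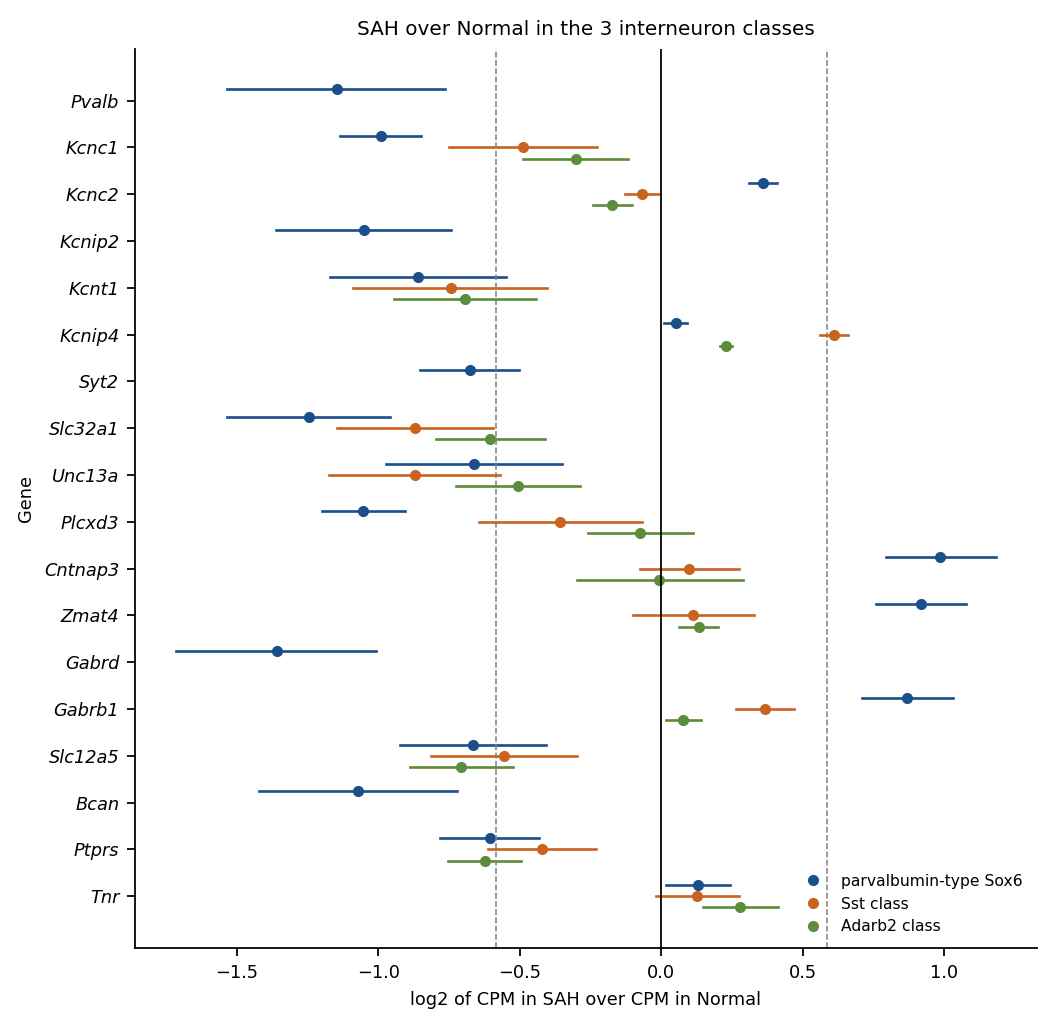
Log2 ratio of CPM in SAH over CPM in Normal (horizontal axis) for 18 genes of fast spiking, GABA release and the perineuronal net (vertical axis) in the parvalbumin-type, Sst and Adarb2 interneurons. Points are ratios, bars exact 95% counting intervals and dashed lines 1.5-fold, and a class is shown where the gene had at least 200 UMIs over both libraries. Kcnc1, Plcxd3, Cntnap3 and Zmat4 lie further from 0 in the parvalbumin-type nuclei than in the other classes, while Unc13a and Ptprs lie together in all 3.

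Among genes that make, move and release GABA, the vesicular transporter was lower in SAH and the synthesis enzymes were inside the limit. In this list 21 of 29 genes were compared, 0 were past 1.5-fold higher and 4 lower, beside 5.36% and 8.20% of all genes. The median log2 ratio was -0.13, or 0.088 after thinning to 2000 UMIs. The synthesis enzymes Gad1 (369 and 337 CPM, log2 ratio -0.13) and Gad2 (151 and 199 CPM, log2 ratio 0.40), were both used in choosing the nuclei. Slc32a1, the transporter that loads GABA into vesicles, held 262 UMIs in Normal and 163 in SAH, or 148 and 62.6 CPM (log2 ratio -1.25 [-1.54, -0.96]). A UMI of it was present in 80.8% of Normal and 60.8% of SAH nuclei. Its log2 ratio was -0.87 in the Sst class and -0.60 in the Adarb2 class. Syt2, the fast calcium sensor of release at these synapses, stood at 314 and 196 CPM (log2 ratio -0.68 [-0.85, -0.50]). Among nuclei chosen without the limit on Eya4, Mybpc1 and Pvalb its ratio was -0.47 [-0.62, -0.31], inside 1.5-fold. Unc13a, a vesicle-priming factor, gave 103 and 64.9 CPM (log2 ratio -0.66, or -0.50 under an alternative). Syt1 (3553 and 3857 CPM) and Rims2 (1201 and 1594 CPM), which act at the same release site, were inside 1.5-fold.

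The list of GABA receptors and the proteins that anchor or serve them showed 2 of 17 genes past 1.5-fold higher and 3 lower, beside 5.36% and 8.20% of all genes, with a median of 0.04. Gabrd, the delta subunit of receptors outside the synapse, was among the lowest genes of the whole comparison, at 186 UMIs in Normal and 107 in SAH, or 105 and 41.1 CPM (log2 ratio -1.36 [-1.72, -1.01]). Slc12a5, the KCC2 chloride exporter on which inhibition by GABA depends, stood at 148 and 93.3 CPM (log2 ratio -0.66 [-0.92, -0.41]), beside -0.55 and -0.71 in the Sst and Adarb2 classes. Iqsec3, an organizer of inhibitory synapses, gave 109 and 70.6 CPM (log2 ratio -0.63), but its ratio was 0.12 after thinning to 2000 UMIs. Gabrb1, a beta subunit, was higher at 246 and 449 CPM (log2 ratio 0.87 [0.71, 1.03]), against 0.37 in the Sst class and 0.08 in the Adarb2 class. Gabrg3, a gamma subunit, stood at 2890 and 2962 CPM.

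The perineuronal net list had 8 of its 25 genes compared, with 0 past 1.5-fold higher and 2 lower, beside 5.36% and 8.20% of all genes, and its median log2 ratio was -0.45 in the parvalbumin-type nuclei, 0.11 in the Sst class and 0.04 in the Adarb2 class. After thinning to 2000 UMIs the median in the parvalbumin-type nuclei was -0.18. Bcan, which encodes the net proteoglycan brevican, held 168 UMIs in Normal and 118 in SAH, or 95.1 and 45.3 CPM (log2 ratio -1.07 [-1.42, -0.72]). In the Sst class Bcan was scarce but also lower in SAH, at 13.2 CPM in Normal and 6.30 CPM in SAH. The medians of the other classes are over the genes compared in the parvalbumin-type nuclei. No minimum of UMIs was set for those genes in the other classes. Ptprs, a receptor for matrix proteoglycans, stood at 309 and 203 CPM (log2 ratio -0.61). Crtac1 and Lgi2, secreted proteins, had log2 ratios of -0.54 and -0.55, just inside the limit, and Tnr, which cross-links the net, was at 594 and 651 CPM. Acan, the main net proteoglycan, fell under the minimum with 62 UMIs in Normal and 69 in SAH, or 35.1 and 26.5 CPM, and its ratio of -0.41 [-0.92, 0.11] spanned 0. Hapln1, the link protein, had 34 and 67 UMIs and a ratio of 0.42 [-0.20, 1.06]. Also under the minimum, Adamts15, a protease of matrix proteoglycans, had 66 and 24 UMIs (log2 ratio -2.02 [-2.76, -1.33]) and Vcan, the proteoglycan versican and also a marker of the precursor list, 2 and 40 UMIs (3.76 [1.81, 6.86]).

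Among the parvalbumin-type markers outside the limits, 2 of 19 were past 1.5-fold higher and 3 lower, beside 5.36% and 8.20% of all genes, with a median of 0.07. That median was -0.11 against genes of like length and -0.068 in members with a Pvalb UMI. Plcxd3, a phospholipase-like gene, stood at 522 CPM in Normal and 252 CPM in SAH (log2 ratio -1.05 [-1.20, -0.91]), beside -0.36 and -0.08 in the Sst and Adarb2 classes, and Kcnip2 and Syt2 were the other lower ones. Cntnap3, an adhesion protein of the neurexin family, was higher at 167 and 331 CPM (log2 ratio 0.99 [0.79, 1.18]), and Zmat4, a zinc-finger gene, at 247 and 467 CPM (log2 ratio 0.92 [0.76, 1.08]). Each was inside the limit under 1 alternative, Cntnap3 at 0.50 after thinning and Zmat4 at 0.56 with each sub-cluster at the same weight. Both ratios were near 0 in the other classes, between -0.01 and 0.13. Il1rapl2 (2277 and 2436 CPM) and Nxph1 (2376 and 2976 CPM), adhesion genes with the most UMIs of this list, stayed inside the limit. Erbb4, the neuregulin receptor that the limits used, had a log2 ratio of 0.21. In neuregulin and ErbB signalling 0 of 8 genes passed 1.5-fold in either direction, beside 5.36% higher and 8.20% lower of all genes. The lineage transcription factors gave 1 of 14 higher and 0 lower, beside 5.36% and 8.20% of all genes, with Nfia at 36.8 and 65.6 CPM and Lhx6 at 55.5 and 44.1 CPM.

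Lists of excitability and adhesion genes differed in how many members passed the limit. Synaptic adhesion genes gave 6 of 40 past 1.5-fold higher and 0 lower, beside 5.36% and 8.20% of all genes, with a median log2 ratio of 0.23, and among them Slit3 (log2 ratio 0.85), Cdh12 (0.84), Pcdh11x (0.83) and Tenm3 (0.83), which guide axons or join synaptic partners, had the largest ratios. Each came inside 1.5-fold under an alternative, at 0.49, 0.49, 0.47 and 0.34. Against genes of like length the median of the adhesion list was 0.03. Glutamate receptor genes gave 2 of 21 higher and 0 lower, beside 5.36% and 8.20% of all genes, with a median of 0.25, or 0.12 against genes of like length. Grik1, a kainate receptor subunit, stood at 563 CPM in Normal and 877 CPM in SAH (log2 ratio 0.64 [0.53, 0.75]). It stayed past 1.5-fold under 7 of 12 alternatives, with a lowest ratio of 0.40. Sodium and pacemaker channels gave 1 of 16 higher, Scn9a at 307 and 470 CPM, and 0 lower, beside 5.36% and 8.20% of all genes. Their median of 0.13 was -0.01 against genes of like length. Scn1a, the main sodium channel of these cells, stood at 1020 and 801 CPM (log2 ratio -0.35). Calcium channel and calcium handling genes gave 3 of 25 higher and 1 lower, beside 5.36% and 8.20% of all genes, with a median of -0.01. The lower one was Pvalb. The higher ones were Cacna2d1, Cacna1e and Ryr3 (described below), and each of them changed sign under an alternative. Cacna2d1, an auxiliary calcium channel subunit, had 66 and 206 UMIs (log2 ratio 1.08), of which 19 and 75 lay in 1 nucleus of each library, and with the marker limits read per 10000 UMIs its ratio was -0.05. Cacna1e, an R-type calcium channel, had 98 and 272 UMIs (log2 ratio 0.91), and -0.11 after thinning to 2000 UMIs.

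Of 45 genes of energy metabolism 25 were compared. At least 1.5-fold lower were 12 of 25 and 0 were higher, beside 8.20% and 5.36% of all genes, and the rest were inside the limit. The median log2 ratio was -0.58, and the list as a group was not tested. The same genes had a median of -0.37 in the Sst class and -0.42 in the Adarb2 class. Ckb, the brain creatine kinase that buffers ATP, was the lowest, with 234 UMIs in Normal and 105 in SAH, or 132 and 40.3 CPM (log2 ratio -1.72 [-2.06, -1.38]). Atp5b, a subunit of the mitochondrial ATP synthase, stood at 75.3 and 31.1 CPM (log2 ratio -1.28 [-1.69, -0.87]). Ndufa4 and Cox4i1, subunits of the respiratory chain, had log2 ratios of -0.94 and -0.85. Both came inside 1.5-fold under an alternative, at -0.581 and -0.375. Atp1b1, a subunit of the sodium pump, stood at 1151 and 774 CPM (log2 ratio -0.57), and Esrrg, a nuclear receptor of mitochondrial genes, at 1125 and 1067 CPM. Ppargc1a, its co-activator, was on the other side of 0 at 290 and 334 CPM (log2 ratio 0.20 [0.04, 0.36]). Mitochondrially encoded transcripts were a median of 0.0427% of UMIs per nucleus in Normal and 0.0299% in SAH.

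Heat shock and endoplasmic reticulum chaperone genes had the lowest median of all 20 lists that could be compared, at -0.75. Of 35 genes 15 were compared, 0 were past 1.5-fold higher and 10 lower, beside 5.36% and 8.20% of all genes. Calr, the calcium-binding chaperone calreticulin, held 147 UMIs in Normal and 83 in SAH, or 83.2 and 31.9 CPM (log2 ratio -1.39 [-1.79, -0.99]). Hsp90b1, the HSP90 form of the endoplasmic reticulum, held 350 and 203 UMIs, or 198 and 77.9 CPM (log2 ratio -1.35 [-1.60, -1.09]). The cytosolic forms Hsp90aa1 (89.4 and 36.5 CPM) and Hsp90ab1 (99.1 and 42.2 CPM) had log2 ratios of -1.30 and -1.23. Manf, a secreted protein of the endoplasmic reticulum, was on the higher side at 59.4 and 84.4 CPM (log2 ratio 0.51), inside the limit. The inducible heat shock genes Hspa1a and Hspb1 were at or near 0, with 0 and 0 UMIs and 0 and 1 UMIs. The median of the list was -0.63 in the Sst class and -0.65 in the Adarb2 class, and -0.41 in the parvalbumin-type nuclei against genes of like length.

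Several of these chaperone genes share a sequence upstream of their start, the endoplasmic reticulum stress element, which is bound by the factors NF-Y and ATF6. Promoter windows of RefSeq (GRCm38.p6), from 250 bases before to 50 bases after a gene's start, were searched on both strands for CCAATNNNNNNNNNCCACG, a motif chosen after the ratios were seen. It was found in 39 of 32851 windows (0.119%). Of the 9 compared chaperone genes with a window 4 held it, and their sites are printed because those genes are among the lower ones, each as 29 bases 5′ to 3′ on the strand of the motif, with its 2 fixed ends in capitals.
Hsp90b1: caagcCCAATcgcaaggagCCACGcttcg
Hsp90b1: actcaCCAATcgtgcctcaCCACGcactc
Calr: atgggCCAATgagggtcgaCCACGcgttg
Hspa5: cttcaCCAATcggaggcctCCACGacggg
Canx: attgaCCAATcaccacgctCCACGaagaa
The sites lie at chr10:86705633-86705661 (minus strand) and chr10:86705528-86705556 (plus strand) for Hsp90b1, chr8:84847070-84847098 (plus strand) for Calr, chr2:34772020-34772048 (plus strand) for Hspa5 and chr11:50325795-50325823 (minus strand) for Canx. Hspa5, the chaperone BiP, stood at 100 CPM in Normal and 59.1 CPM in SAH (log2 ratio -0.76), and Canx, the membrane chaperone calnexin, at 169 and 111 CPM (log2 ratio -0.60). Outside the list 2 compared genes held the motif, of which Hnrnpa3, an RNA-binding protein, had a log2 ratio of -0.93 and Spats2l one of 0.32. The element was searched for because these chaperones were lower, so their ratios say nothing further about it. Atf6 itself stood at 71.9 and 89.8 CPM (log2 ratio 0.32 [0.00, 0.64]). A match of letters is a description of the sequence and no measure of binding.

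**Figure D3:**
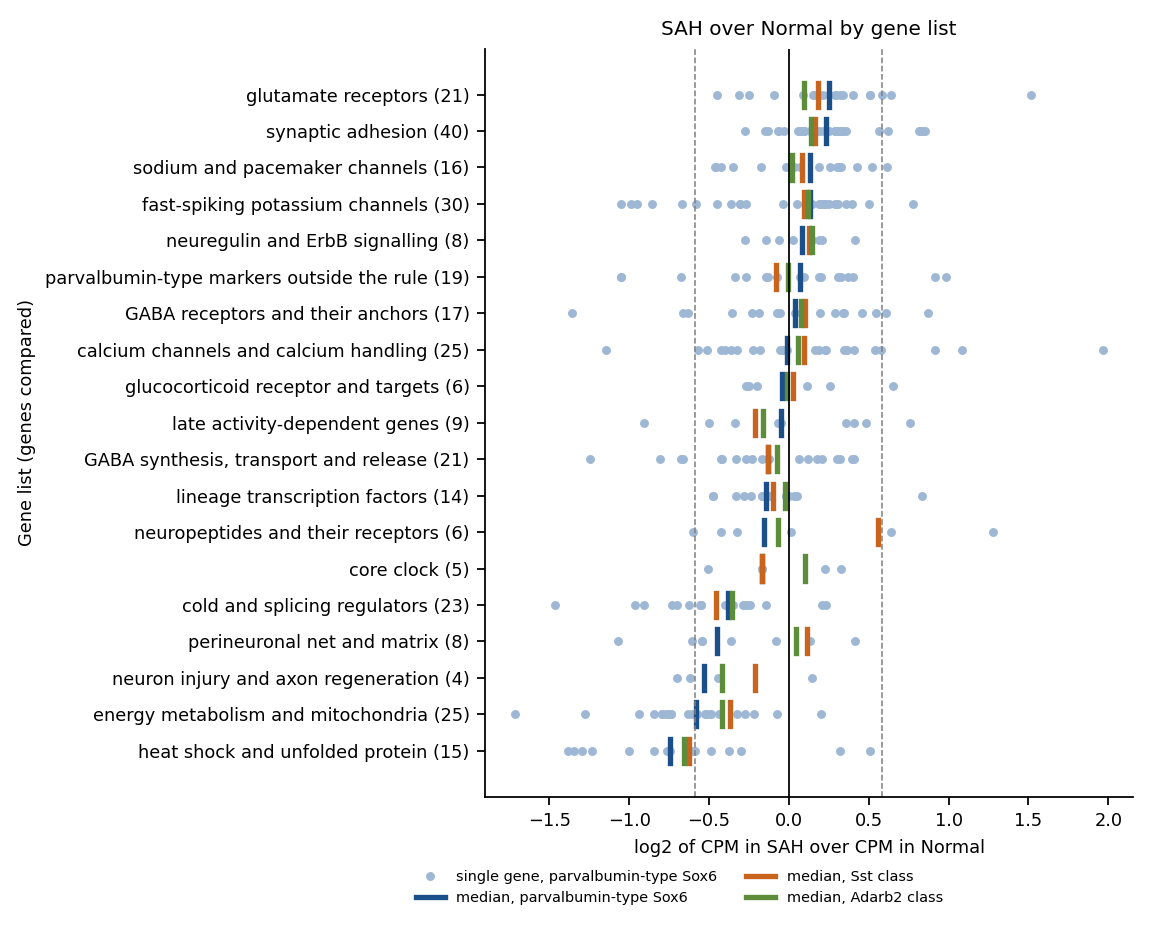
Log2 ratio of CPM in SAH over CPM in Normal (horizontal axis) for each gene list with at least 4 genes compared (vertical axis, number of genes in brackets). Light points are single genes in the parvalbumin-type nuclei, vertical bars the medians of the 3 interneuron classes and dashed lines 1.5-fold. All medians are over the genes that met the minimum in the parvalbumin-type nuclei, with no minimum set in the other classes. The heat shock list lies lowest in all 3 classes, while the perineuronal net median is -0.45 in the parvalbumin-type nuclei and above 0 in the others.

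Regulators of splicing and nuclear RNAs gave 0 of 23 genes past 1.5-fold higher and 6 lower, beside 5.36% and 8.20% of all genes, with a median of -0.38, or -0.11 against genes of like length. Malat1, a nuclear RNA, went from 54663 to 33596 CPM (log2 ratio -0.70), and Clk4, a kinase of splicing factors, from 184 to 66.8 CPM (log2 ratio -1.46 [-1.74, -1.19]). Srsf2 and Srsf5, splicing factors, had log2 ratios of -0.97 and -0.91. Meg3, another nuclear RNA, was higher at 7226 and 8489 CPM, inside the limit.

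In the stress hormone, activity, clock, hypoxia and injury lists few genes reached the minimum, and counts this small cannot be set apart from the 5.36% higher and 8.20% lower of all genes. The glucocorticoid list gave 1 of 6 past 1.5-fold higher, Zbtb16 with 154 and 357 UMIs (log2 ratio 0.65 [0.38, 0.93], beside 0.61 in the Sst and 0.52 in the Adarb2 class), and 0 lower. Fkbp5, a co-chaperone induced by glucocorticoids and named after its value was seen, was under the minimum with 12 UMIs in Normal and 101 in SAH, or 6.79 and 38.8 CPM (log2 ratio 2.51 [1.65, 3.51]). It was seen in 10.0% of Normal and 35.5% of SAH nuclei, and its log2 ratio was 0.63 in the Sst class and 0.66 in the Adarb2 class. All 32 rapid immediate early genes were under the minimum, with 125 UMIs in Normal and 132 in SAH for the whole list (70.8 and 50.7 CPM), and Fos had 0 and 1 UMIs, so no single gene of it was compared. Of the late activity genes Scg2, a secretory granule protein, was lower (109 and 58.0 CPM, log2 ratio -0.91) and Pde4b higher (59 and 147 UMIs, log2 ratio 0.76), though both came inside 1.5-fold under an alternative, at -0.55 and 0.34. The core clock list gave 0 of 5 genes past the limit, with Nr1d2 at -0.51 and Npas2 at 0.33, and hypoxia 0 of 2, with Hif1a at -0.29. The whole hypoxia list held 896 and 897 UMIs, or 507 and 344 CPM, and under the minimum Vegfa, a vessel growth factor, had 114 and 59 UMIs (log2 ratio -1.51 [-1.99, -1.05]), with Eno1 at -1.23 and P4ha1 at -1.09. Among injury genes Tfrc, the transferrin receptor, and Fth1, ferritin, were lower, with log2 ratios of -0.70 and -0.62. Both came inside 1.5-fold under an alternative, at -0.41 and -0.26. Among receptors of modulators Htr2c (1.28) and Chrm2 (0.64) were higher and Oprd1, the delta opioid receptor, lower (-0.60, or -0.24 under an alternative). Chrm2 was held by 22 and 40 nuclei and Htr2c by 21 and 36, and with each sub-cluster of nuclei (described below) at the same weight in both libraries the ratio of Chrm2 was -0.14. With the marker limits read per 10000 UMIs the ratio of Htr2c was 0.42, inside the limit.

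The genes with the highest ratios in SAH fell into transcripts spread over most nuclei and transcripts held by few. Sorbs2os, an antisense RNA at the Sorbs2 locus (chr8:45723325-45819297, minus strand), had 223 UMIs in Normal and 1170 in SAH, or 126 CPM [110, 144] and 449 CPM [424, 476] (log2 ratio 1.83 [1.62, 2.04]). It was seen in 77.5% of Normal and 97.6% of SAH nuclei, and its log2 ratio was 0.93 in the Sst class and 1.55 in the Adarb2 class. AY036118, which lies in the locus of the ribosomal RNA precursor on chromosome 17, had 125 and 642 UMIs (log2 ratio 1.80), and 1.62 and 1.82 in the other classes. The unnamed transcripts Gm47027 (1.80), 4930532I03Rik (1.63), Gm28379 (1.46) and Gm48091 (1.38), the imprinted Rtl1 (1.66) and the fragile-site gene Fhit (1.38) were likewise at 0.89 or above in both other classes. All 8 overlap other annotated genes, AY036118, Rtl1 and Fhit on the same strand and the other 5 on the other strand only, and the part of those genes in their counts was not tested.

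The rest of the 12 highest genes were carried by fewer nuclei. Ryr3, an intracellular calcium release channel, had 31 UMIs in Normal and 179 in SAH (log2 ratio 1.97 [1.41, 2.57]), but 20 and 31 nuclei held any, and 77 of the 179 lay in 1 nucleus. With the marker limits read per 10000 UMIs its ratio was -0.11. Nkain3, a sodium pump interactor, had 161 and 680 UMIs in 32 and 59 nuclei (log2 ratio 1.52, or 0.26 with those limits per 10000 UMIs), Pde1a, a cyclic nucleotide phosphodiesterase, 40 and 192 UMIs in 24 and 45 nuclei (1.70), and Nell1, a secreted protein, 76 and 322 UMIs in 35 and 61 nuclei (1.52). Outside the 12, Grin3a, an NMDA receptor subunit that is abundant in Sst interneurons, had 55 and 232 UMIs in 14 and 31 nuclei (log2 ratio 1.52, or 0.55 with each sub-cluster at the same weight). In the Sst class the ratios of these 5 genes ranged from 0.17 to 0.60. Like Grin3a, the others were more abundant in the Sst class than in the parvalbumin-type nuclei in both libraries, and also in the Adarb2 class. In Normal, Ryr3 stood at 17.6 CPM in the parvalbumin-type nuclei and 230 CPM in the Sst class, and Nkain3 at 91.1 and 1185 CPM. Pde1a stood at 22.6 and 622 CPM, and Nell1 at 43.0 and 530 CPM.

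**Figure D4:**
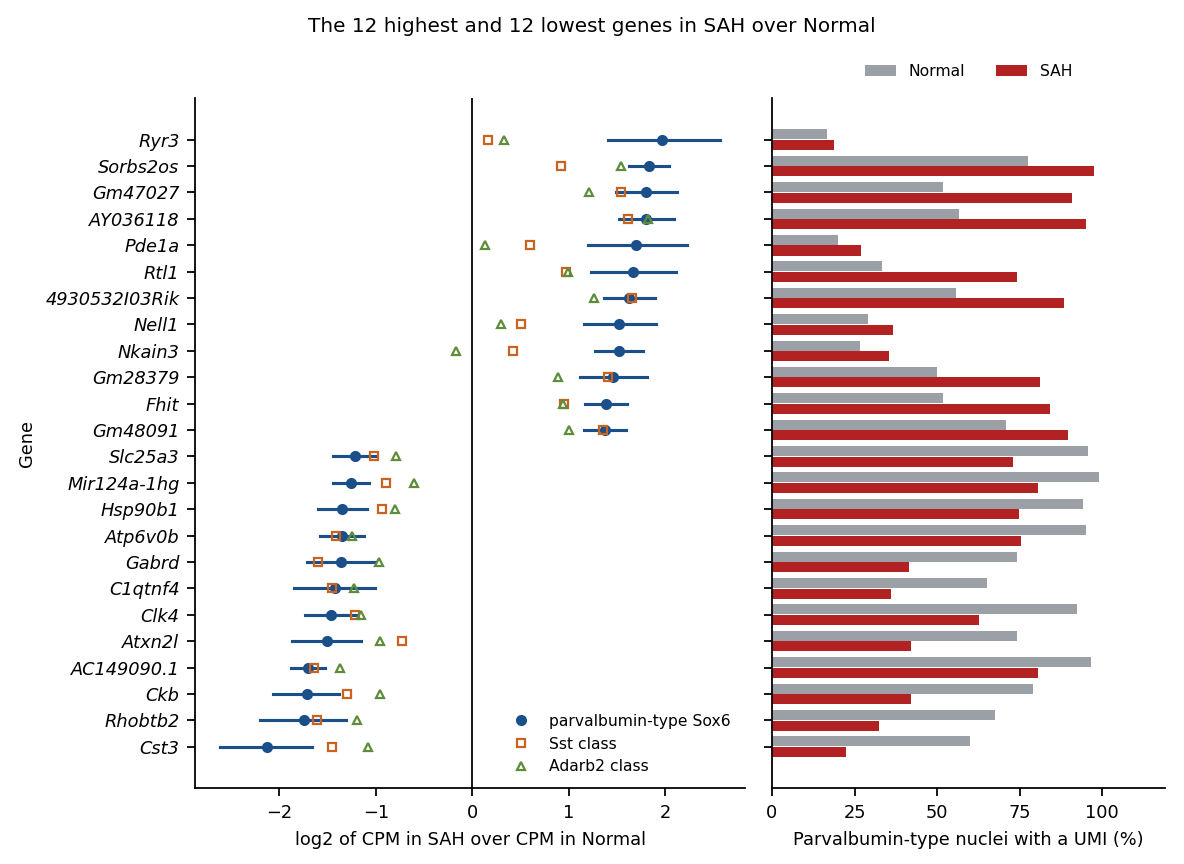
Left, log2 ratio of CPM in SAH over CPM in Normal for the 12 highest and 12 lowest genes of the parvalbumin-type nuclei (filled points, bars for exact 95% counting intervals), with the Sst class (squares) and the Adarb2 class (triangles). Right, share of parvalbumin-type nuclei (%) with a UMI in Normal (grey) and SAH (red). For Ryr3, Pde1a, Nell1 and Nkain3 fewer than 40% of nuclei hold a UMI in either library, and the other classes lie between -0.16 and 0.60.

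The 12 lowest genes were short, from 2.98 to 20.6 kb, and were also lower in the other interneurons. Cst3, the protease inhibitor cystatin C, had a log2 ratio of -2.13 [-2.61, -1.66] and was seen in 60.0% of Normal and 22.3% of SAH nuclei. It is also a main transcript of glia, and 1 Normal nucleus held 23 of its UMIs. Rhobtb2, an adaptor for protein degradation, gave -1.74, AC149090.1 -1.70, Atxn2l, an RNA-binding protein, -1.51, C1qtnf4, a secreted protein, -1.42, and Atp6v0b, a subunit of the vesicular proton pump, -1.35. The host RNA of miR-124, Mir124a-1hg, gave -1.25 and Slc25a3, the mitochondrial phosphate carrier, -1.22. For all 12 of the lowest genes the ratio was below -0.60 in the Sst class and in the Adarb2 class.

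Against the Sst class, the transcripts most raised in the parvalbumin-type nuclei in both libraries, Syt2 and the genes used by the limits apart, were Pde5a, 4930447N08Rik, Cemip, Tll1, 6330411D24Rik, Igsf11, Mypn, Gm26633, Tmem108, Myo1e, Slit2, Parm1, Trps1 and Kcnip2. Syt2 was 6.31 log2 units above the Sst class in Normal and 5.77 in SAH, and Pde5a, which degrades cyclic GMP, 5.07 and 4.77. Past 1.5-fold lower in SAH were Syt2, Pde5a, Cemip, Tmem108, Parm1 and Kcnip2, beside 8.20% of all genes. Cemip, which degrades hyaluronan, stood at 666 CPM in Normal and 341 CPM in SAH (log2 ratio -0.97 [-1.09, -0.84]), beside -1.55 and -0.44 in the Sst and Adarb2 classes. Parm1 had a log2 ratio of -1.15 [-1.38, -0.93], beside -1.05 and 0.04. Tmem108 had one of -0.84 [-0.93, -0.74], beside 0.20 and -0.29. In the Sst class Cemip and Parm1 were scarce, at 42.3 and 25.1 CPM in Normal. Slit2, an axon guidance ligand (717 and 751 CPM), and Trps1, a zinc-finger repressor (670 and 678 CPM), were alike in both libraries.

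The nuclei also differed among themselves. With the marker genes and the genes followed here left out of the features, and each gene centred within its library, clustering gave 6 sub-clusters, which are described by number only. They held 38, 40, 17, 11, 9 and 5 nuclei in Normal and 53, 38, 18, 19, 17 and 21 in SAH, so that sub-cluster 6 was 4.17% of Normal and 12.7% of SAH members. Kcnc1 was lower in SAH in all 6, from 642 to 283 CPM in sub-cluster 6 and from 244 to 147 CPM in sub-cluster 5, where it was lowest. Pvalb was lower in all 6, with counting intervals of the ratio below 0 in sub-clusters 1, 2, 3 and 6, the last with 5 nuclei in Normal. Kcnip2, Kcnt1, Gabrd, Bcan, Cemip, Ckb, Calr and Hsp90b1 were lower in all 6, and Slc32a1, Syt2 and Plcxd3 in 5.

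The transcripts held by few nuclei gathered in some sub-clusters. Ryr3 had 157 of its 179 SAH UMIs in sub-cluster 5, at 405 CPM against 91.6 CPM in Normal, and in the other sub-clusters at most 10 UMIs in SAH. Grin3a had 191 of 232 there, in 12 nuclei, and its ratio in sub-cluster 6 was -2.39 [-3.71, -1.08]. Sub-cluster 5 also held 23 of the 34 Sst UMIs of SAH members, each nucleus with 3 or fewer. Nkain3 had 547 of its 680 SAH UMIs in sub-cluster 1, at 750 CPM against 245 CPM in Normal, while its ratio was below 0 in 3 sub-clusters. Sorbs2os and AY036118 were higher in SAH in all 6. With each sub-cluster given the same weight in both libraries, Kcnc1, Pvalb and Sorbs2os kept their direction past 1.5-fold.

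**Figure D5:**
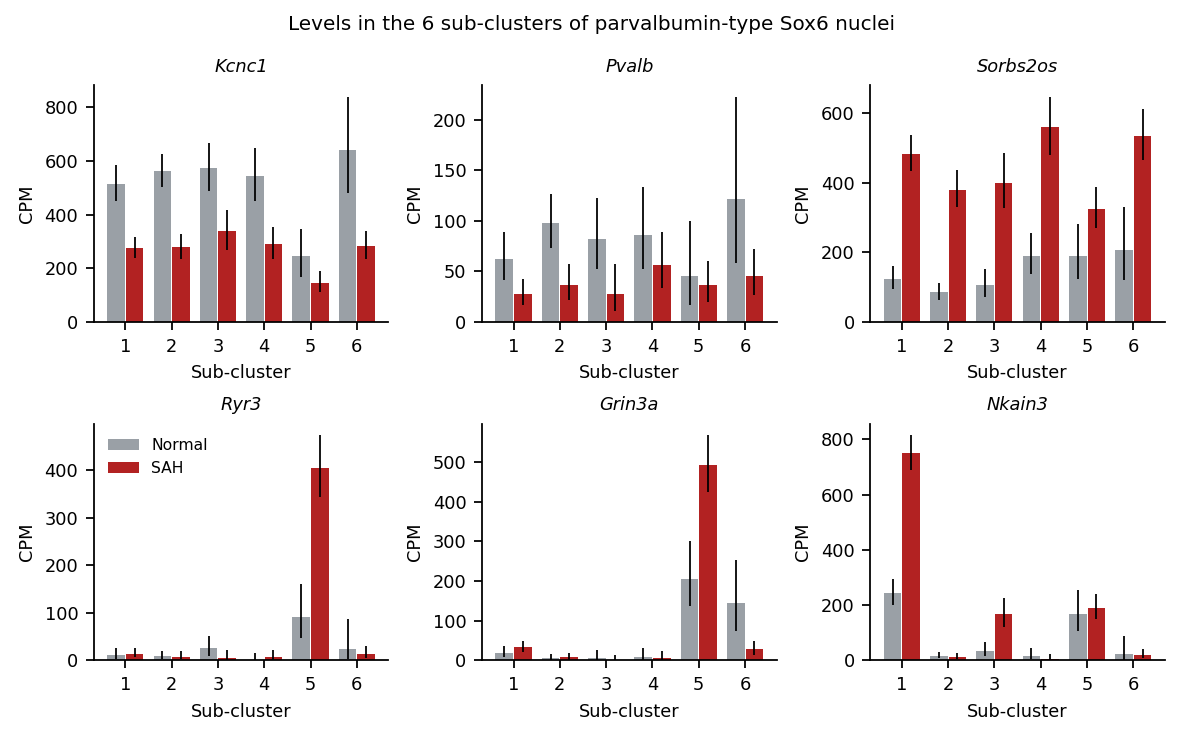
CPM of 6 genes in the 6 sub-clusters of parvalbumin-type nuclei in Normal (grey) and SAH (red), with exact 95% Poisson intervals for counting error. Kcnc1 and Pvalb are lower and Sorbs2os higher in SAH in every sub-cluster, whereas Ryr3 and Grin3a are highest in sub-cluster 5 and Nkain3 in sub-cluster 1.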

How the data were processed

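Nuclei of the haemorrhagic hemisphere were profiled as 1 Normal and 1 SAH library (10x Genomics 3′ chemistry). The deposited files hold UMI counts per gene and nucleus without normalization, which the authors made with Cell Ranger (version 6.1.2 per the file headers, 5.0.0 in the submitters' processing notes) on mm10 with intronic reads counted. Features and barcodes files hold names only. The members and gene lists were chosen with earlier results of these data known.

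Counts were read in Python 3.11.15 with numpy 2.4.6, pandas 2.3.3, scipy 1.17.1 and scanpy 1.11.5, and the UMIs of each class were added up per library. With 1 library a group, no test was run. Genes were compared from 200 UMIs over both libraries. The 21 lists came from general knowledge, with earlier results of these data known. Named genes were the marker genes, in each list the 4 with the largest ratios and the 2 with the most UMIs, the 12 highest and 12 lowest ratios by the interval bound nearest 0, the 15 highest over the Sst class among genes that the limits did not use, and the most abundant marker of other cells. Genes named besides these (Kcnn2, Scn1a, Acan, Hapln1, Ppargc1a, Manf, Hspa1a, Hspb1, Hspa5, Atf6, Hnrnpa3, Spats2l, Fos, Fkbp5, Vegfa, Eno1, P4ha1, Adamts15, Vcan) were chosen after their values were seen. Sub-clusters came from 2000 variable genes, with 191 named genes and markers left out after seeing the data, 20 principal components, 15 neighbours and Leiden at resolution 0.6. Gene positions came from GENCODE vM21 on GRCm38. Intervals were tested on counts simulated under the Poisson and binomial models they assume, which does not cover UMIs that gather in single nuclei. Some genes that the rule names are not reported here.

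Alternatives were doublet removal, the study's limits on nuclei, other marker limits, equal weights, thinning, centring, other UMI minimums and, added after the data were seen, equal sub-cluster weights, no top nucleus per gene and nuclei chosen without Pvalb.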

Additional observations from a re-analysis of the deposited data

Results flagged for a closer look

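Ndst3, which encodes a heparan sulphate modifying enzyme, stood out because it was past 1.5-fold in opposite directions in the parvalbumin-type nuclei and in the Sst class. It held 348 UMIs in Normal and 994 in SAH in the parvalbumin-type nuclei, or 197 and 382 CPM, a log2 ratio of 0.95 [0.78, 1.13]. In the Sst class it stood at 64.8 and 37.4 CPM, a log2 ratio of -0.79 [-1.20, -0.40], and in the Adarb2 class its log2 ratio was 0.12. The difference between the classes was not tested, since each had 1 library per group. Of 3092 genes with at least 200 UMIs in both classes it was the only 1, and with the Adarb2 class there were 0 of 3351.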

How the results depend on the processing

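The share of members depended on the limits. In Normal and SAH it was 0.811% and 0.648% with marker limits per 10000 UMIs, 0.565% (69 nuclei) and 0.560% (102) with stricter limits, 1.37% and 1.16% with looser ones, and 0.672% and 0.368% (67) for members with a Pvalb UMI, the setting in which the order was furthest apart. The count of genes past 1.5-fold lower was 166 of 2373 compared per 10000 UMIs, 148 of 2391 under stricter limits, 139 of 2099 in members with a Pvalb UMI (280 of 3415 as reported, so fewer genes were also compared) and 140 of 3415 when set against genes of like length. With a minimum of 100 UMIs 330 genes were higher and 718 lower, with 400 UMIs 95 and 86, and after thinning to 2000 UMIs, which left 406 genes, 36 and 11. Against genes of like length the list medians were -0.41 for heat shock, -0.11 for splicing, 0.034 for adhesion, 0.12 for glutamate receptors, -0.011 for sodium channels and -0.11 for the parvalbumin-type markers. After thinning they were 0.088 for GABA synthesis and release, -0.18 for the perineuronal net, 0.15 for late activity genes and -0.86 for injury genes. In members with a Pvalb UMI they were -0.068 for the parvalbumin-type markers and -0.057 for neuregulin genes.

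Of 74 named genes past 1.5-fold, 39 stayed past it in the same direction under every alternative run. Among the others, Syt2, Unc13a, Slc12a5, Ptprs, Canx, Cox4i1, Malat1, Grik1, Scn9a, Zbtb16, Tfrc, Fth1, Oprd1, Scg2, Pde4b, Pde5a, Srsf5, Ndufa4, Nfia, Slit3, Cdh12, Pcdh11x and Tenm3 kept their direction but came inside 1.5-fold under 1 or more. The sign turned for Cacna2d1 (-0.053) and Ryr3 (-0.11) with limits per 10000 UMIs, for Cacna1e (-0.11) and Iqsec3 (0.12) after thinning, and for Chrm2 (-0.14) with equal sub-cluster weights. Pvalb ranged from -1.34 to -0.47, the latter among members with a Pvalb UMI. The cause was not tested. No paired analysis was possible because each group had 1 library. Thinning leaves few UMIs per gene, so its ratios are the least precise.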
